A study of Mus musculus with 4 samples.

Results

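The heat shock proteins and their DnaJ cochaperones were described in the hypothalamus of WD-fed male mice. Members were taken by symbol from the count matrix of transcripts, summed to genes, as all symbols that start with Hspa, Hspb, Hspd, Hspe, Hsph, Hsp90a, Dnaja, Dnajb or Dnajc. Hspa5 and Dnajb9, which report stress of the endoplasmic reticulum (ER), were left out. The rule gave 65 of 16339 genes, and 12 of these were set apart as stress-inducible, which left 53 as constitutive. By its wording, the rule also took Hspbp1 and Hspbap1, which encode partners of chaperones, and Hspb11, which encodes a subunit of the ciliary transport machinery.

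The study asked how the sweet and umami taste receptor subunit TAS1R3 bears on anxiety under a western diet (WD). Poly(A)-selected, ribosomal RNA-depleted RNA of the hypothalamus was sequenced from 2 libraries of wild-type (WT) mice and 2 of Tas1r3-/- mice. All 4 libraries came from C57BL/6 males that had a 60% fat diet and a 30% sucrose solution for 12 weeks, with WT littermates matched for age and weight. The knockout is conventional, so that every tissue lacks the gene, and libraries of mice fed a normal diet were not analysed here. The labels number the libraries of a group without saying that each is a separate mouse, so p-values measure only the spread between these libraries.

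Heat shock proteins bind unfolded or aggregating proteins and help them to fold, to reach their compartment or to be degraded. HSP70 proteins (Hspa) do so by cycles of ATP hydrolysis that J-domain proteins (Dnaja, Dnajb, Dnajc) start, HSP110 proteins (Hsph1, Hspa4, Hspa4l) exchange the nucleotide, and HSP90 proteins and small heat shock proteins hold other substrates. A few of these genes are induced within minutes of heat or other stress by heat shock factor 1 (HSF1), which binds inverted repeats of GAA. Many others are expressed without stress, some of them mostly in certain tissues. The constitutive class here is only what the inducible list left.

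The stretches before the start sites of 5 inducible genes are shown because they carry matches to the repeats that HSF1 binds. The inducible list was set by symbol, not by these matches. They are RefSeq promoter windows of build GRCm38.p6, each found once on the same chromosome of GRCm39, the build the authors aligned to. Capitals mark each GAANNTTC or TTCNNGAA, the adjacent inverted repeats that were searched on both strands, where N is any base and where neighbouring matches can share bases. For Hsph1 and Hspe1, whose windows overlap annotated transcripts, only 30 bases are shown, and the other matches in the Hsph1 window are not.
Hspa1a, bases 250 to 51 before the start, chr17:35191183-35191382, minus strand: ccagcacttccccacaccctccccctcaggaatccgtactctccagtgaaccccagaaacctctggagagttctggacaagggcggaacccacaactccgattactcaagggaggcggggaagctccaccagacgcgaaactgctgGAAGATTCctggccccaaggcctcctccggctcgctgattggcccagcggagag
Hspa1b, bases 250 to 51 before the start, chr17:35178265-35178464, minus strand: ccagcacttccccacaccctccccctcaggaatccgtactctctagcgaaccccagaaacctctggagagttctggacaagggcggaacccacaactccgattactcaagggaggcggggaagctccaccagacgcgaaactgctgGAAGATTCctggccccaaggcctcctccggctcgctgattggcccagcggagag
Hspb1, bases 250 to 51 before the start, chr5:135916523-135916722, plus strand: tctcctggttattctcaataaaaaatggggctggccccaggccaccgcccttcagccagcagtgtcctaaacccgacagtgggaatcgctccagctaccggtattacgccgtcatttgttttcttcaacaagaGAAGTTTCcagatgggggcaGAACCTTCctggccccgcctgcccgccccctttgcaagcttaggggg
Hsph1, bases 42 to 13 before the start, chr5:149559814-149559843, minus strand: gtagaatctTTCTCGAAggctcgagaagaa
Hspe1, bases 95 to 66 before the start, chr1:55127212-55127241, plus strand: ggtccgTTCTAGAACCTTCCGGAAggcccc

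Hspa1a and Hspa1b hold the same match at the same distance, 104 to 97 bases before the start, and their 250 upstream bases differ at 3 positions. Hspb1 holds separate matches at 117 to 110 and at 97 to 90 bases, and Hspe1 holds 3 that overlap from 89 to 72 bases. Over the windows, which run from 250 bases before to 50 after each start, at least 1 match was found in 9 of 11 inducible members with a window (81.8%), in 6 of 42 constitutive members (14.3%) and in 17.0% of 27025 genes. Dnajb1 and Hspa4l were the inducible members without a match, and the table gave no window for Hsp90aa1 or for the constitutive Hspa8. A longer form, in which TTCNNGAA is followed after any 2 bases by TTC, was found in Hspd1, Hspe1 and Hsph1 (27.3%), in Dnajb6 among constitutive members (2.38%) and in 0.662% of genes. The CREB element TGACGTCA, named because the study turns on that factor, was found in no inducible member, in Dnajc27 among constitutive members (2.38%) and in 2.03% of genes. These are matches of letters in a window, not measured sites.

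Library totals of named genes were between 5728729 and 6180137 estimated counts, so that 3 counts, the limit that a count of 0 allows, are 0.482 to 0.526 CPM, the counts per 1000000 of the library total scaled by TMM. Tas1r3 was at 6.01 and 4.45 CPM in WT and at 1.12 and 1.23 CPM in Tas1r3-/-. WT replicate 2 went against its tissue label. All 14 hypothalamic markers were lowest in it, and they summed to 66.1 CPM against 2102 CPM in WT replicate 1 and 1524 and 1483 CPM in Tas1r3-/-, with Nkx2-1 at 0. Thalamic markers summed to 2828 CPM in it against 598, 616 and 813 CPM, and choroid plexus markers to 778 CPM against 83.8 to 94.5 CPM. Tas1r3-/- replicate 1 held pituitary hormone transcripts, with 762 CPM of Gh and 499 CPM of Prl against at most 12.2 and 1.37 CPM in the other libraries. Results are therefore also given without WT replicate 2, which leaves 1 WT library that is assumed to vary like the other group. In tissue samples, fewer cells of a type and less RNA per cell cannot be told apart.

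Of the 65 members, 61 passed the filter on low counts, including all 12 inducible members. None was a differentially expressed gene (DEG) by edgeR's quasi-likelihood test which required a fold change of 1.5 or more and a Benjamini-Hochberg adjusted p under 0.05, nor was any of the 14344 genes tested (0%). Tas1r3, the gene knocked out, was not called either, with a log2 fold change of -2.13 ± 0.42 and an adjusted p of 0.756 by edgeR. The absence of calls therefore does not show an absence of differences. DESeq2 called 9 genes, none of them a member, and limma-trend called 0. At an unadjusted p under 0.05, 4 members were higher in Tas1r3-/- and 0 lower, beside 5.38% of all genes, of which 3.5% of all genes were higher and 1.88% lower. The 4 were the inducible Hspa1a, Hspa1b, Dnajb1 and Dnajb4. Whatever the p, 6 members were at least 1.5-fold higher and 1 at least 1.5-fold lower, beside 5.18% and 6.42% of all genes. Without WT replicate 1, where the lone WT library is the one with few hypothalamic transcripts, 2122 genes were DEGs. Leaving out WT replicate 2 gave 32 DEGs, and none of the members passed the adjusted threshold.

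**Figure D1:**
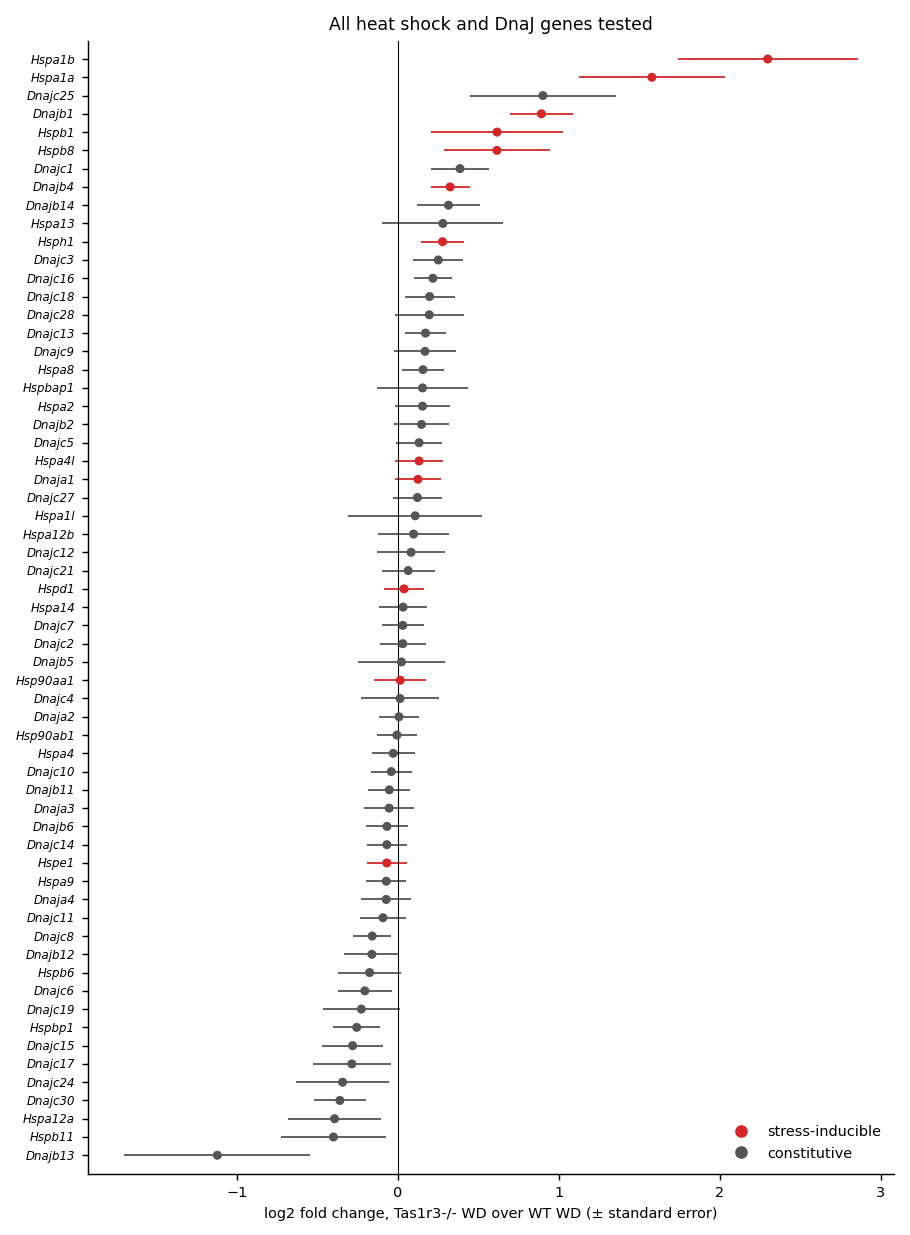
Log2 fold change of each of the 61 tested members, Tas1r3-/- over WT, with its standard error as a horizontal line. Stress-inducible members (red) run from -0.07 for Hspe1 to 2.30 for Hspa1b, and most constitutive members (grey) lie near 0.

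The inducible members stood mostly on one side. Both Tas1r3-/- libraries were above both WT libraries for 8 of 12 (66.7%), beside 20.6% of all genes, and below both for 0, beside 19% of all genes. The median log2 fold change of the 12 was 0.30, with a range from -0.07 to 2.30, beside -0.01 over all genes tested. In 11 of 12, both Tas1r3-/- libraries were also above WT replicate 1 taken alone, beside 37.6% of all genes, and the median without WT replicate 2 was 0.26. The list is small and was chosen with earlier results known, so these counts and medians are descriptions. Fold changes differed widely among inducible members.

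**Figure D2:**
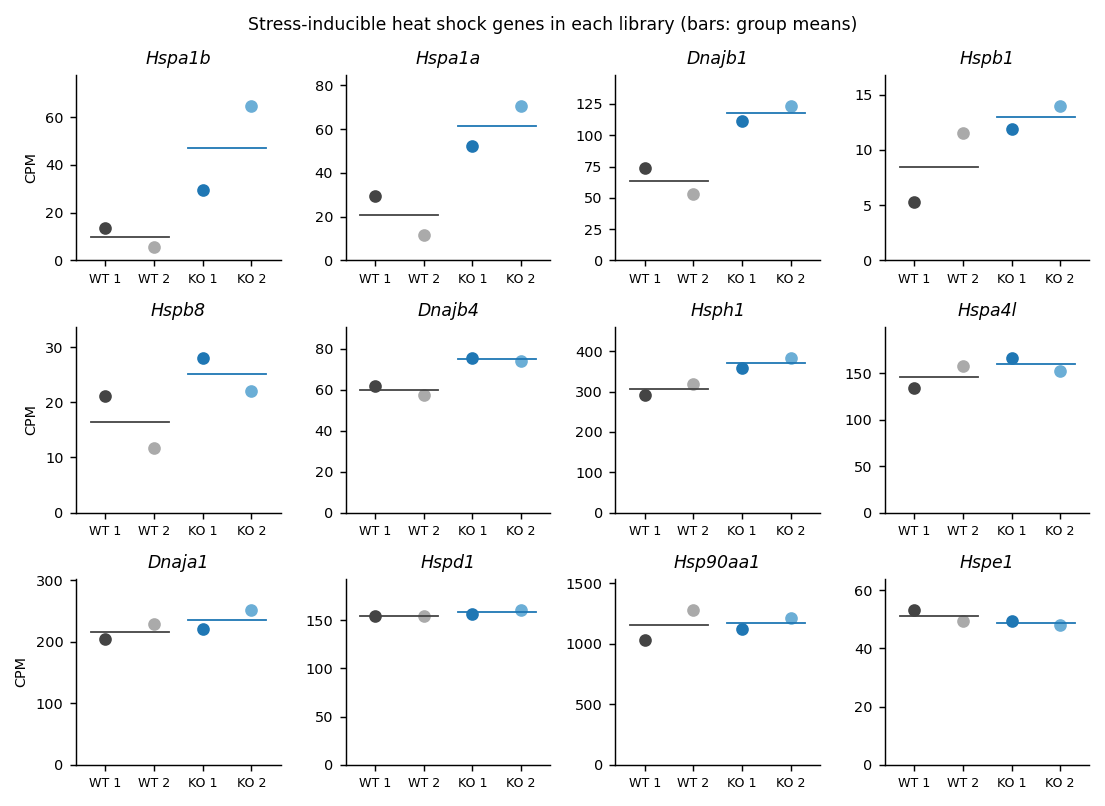
CPM of the 12 stress-inducible members in each of the 4 libraries, each panel from 0 on its own scale, with points for libraries and horizontal bars for group means. Hspa1b, Hspa1a and Dnajb1 have both Tas1r3-/- libraries well above both WT libraries, whereas Hspd1, Hsp90aa1 and Hspe1 sit near the same level in both groups.

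Hspa1a and Hspa1b encode the inducible HSP70 and lie next to each other on chromosome 17, at chr17:35188166-35191132 and chr17:35175412-35178214 of GRCm39, both on the minus strand. Hspa1b was at 13.4 and 5.77 CPM in WT and at 29.4 and 64.9 CPM in Tas1r3-/-. Hspa1a was at 29.5 and 11.7 CPM in WT and at 52.2 and 70.8 CPM in Tas1r3-/-. In both genes WT replicate 2 was the lowest library and Tas1r3-/- replicate 2 the highest, and the groups did not overlap. The log2 fold change was 2.30 ± 0.56 (SE, n = 2 per group) for Hspa1b, a fold of 4.92, and 1.58 ± 0.46 for Hspa1a, a fold of 2.98. By edgeR's quasi-likelihood test the unadjusted p was 0.00976 and 0.0187, and the Benjamini-Hochberg adjusted p was 0.756 for both. DESeq2 gave an adjusted p of 0.0557 for Hspa1b and 0.551 for Hspa1a. The log2 fold change without WT replicate 2 was 1.81 for Hspa1b and 1.06 for Hspa1a, with adjusted p by edgeR of 0.135 and 0.0931. Leaving out WT replicate 1 instead gave 3.02 and 2.40, with adjusted p by edgeR of 0.00204 and 8.91e-05.

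The canonical transcripts of Hspa1a and Hspa1b are 92.96% identical over 2712 aligned bases, so how the authors' quantification split reads between them is uncertain. Counted as 1 gene, they were at 42.9 and 17.5 CPM in WT (30.2 ± 18.0, SD, n = 2) and at 81.6 and 135.7 CPM in Tas1r3-/- (108.7 ± 38.3). The log2 fold change of the sum was 1.85 ± 0.49, with an unadjusted p of 0.0136 and an adjusted p of 0.757 by edgeR. Hspa8, the constitutive HSP70, shares 73.2% of aligned bases with Hspa1a. The neighbouring Hspa1l, mostly known from testis and on the opposite strand, was at 4.47 and 9.23 CPM in WT and at 7.07 and 7.72 CPM in Tas1r3-/-, so its groups overlapped, with a log2 fold change of 0.11 ± 0.42, or 0.72 without WT replicate 2.

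Of the J-domain proteins that deliver substrates to HSP70 in the cytosol, Dnajb1 (HSP40) is the classical inducible form. It was at 73.7 and 53.1 CPM in WT and at 111.3 and 123.8 CPM in Tas1r3-/-, with no overlap. Its log2 fold change was 0.89 ± 0.20, a fold of 1.86, with an unadjusted p of 0.00678 and an adjusted p of 0.756 by edgeR. It was 0.67 when WT replicate 2 was left out, with an adjusted p of 0.0640 by edgeR, and 1.15 without WT replicate 1, with an adjusted p of 0.000143. Dnajb4, a close relative, was at 62.0 and 57.7 CPM in WT and at 75.7 and 74.2 CPM in Tas1r3-/-. Its difference was smaller but its replicates were close, with a log2 fold change of 0.32 ± 0.12 and an unadjusted p of 0.0445 by edgeR. It was 0.27 without WT replicate 2, and 0.38 without WT replicate 1, with an adjusted p of 0.0399 by edgeR. Dnaja1, the farnesylated partner of Hspa8, was at 204 and 229 CPM against 220 and 252 CPM, so its groups overlapped and its log2 fold change was 0.12 ± 0.15, or 0.21 without WT replicate 2.

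The small heat shock proteins Hspb1 and Hspb8 hold aggregating proteins, and Hspb8 works with the cochaperone BAG3 in selective autophagy. Hspb1 was at 5.32 and 11.5 CPM in WT and at 11.9 and 14.0 CPM in Tas1r3-/-. WT replicate 2 was close to Tas1r3-/- here, and WT replicate 1 stood below the other libraries. Hspb8 was at 21.1 and 11.7 CPM in WT and at 28.1 and 22.1 CPM in Tas1r3-/-, with WT replicate 1 close to Tas1r3-/- replicate 2. Their log2 fold changes were 0.62 ± 0.41 and 0.61 ± 0.33, with unadjusted p of 0.196 and 0.123 by edgeR. WT replicate 2 moved them in opposite ways, since without it they were 1.28 for Hspb1 and 0.25 for Hspb8. They were 0.17 and 1.11 without WT replicate 1, where Hspb8 had an adjusted p of 0.00749 by edgeR.

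Hsph1 encodes HSP105, the inducible HSP110 that releases ADP from HSP70. It was at 292 and 320 CPM in WT and at 358 and 384 CPM in Tas1r3-/-, with a log2 fold change of 0.28 ± 0.13 and an unadjusted p of 0.0901 by edgeR. It was 0.34 without WT replicate 2, so its groups stayed apart with either WT library. Hspa4l, another HSP110, was at 134 and 158 CPM against 167 and 153 CPM, with overlapping groups and a log2 fold change of 0.13 ± 0.15, or 0.25 without WT replicate 2.

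The remaining inducible members had log2 fold changes between -0.07 and 0.04, within their standard errors. Hsp90aa1, the inducible cytosolic HSP90, was at 1034 and 1281 CPM in WT and at 1125 and 1213 CPM in Tas1r3-/-, with a log2 fold change of 0.01 ± 0.16. Leaving out WT replicate 2 gave 0.18, and leaving out WT replicate 1 gave -0.13. Hspd1 (HSP60) and Hspe1 (HSP10) form the mitochondrial folding chamber and share 1 bidirectional promoter. Hspd1 was at 155 and 155 CPM against 157 and 161 CPM, so its groups lay apart by a small step, with a log2 fold change of 0.04 ± 0.12 that was also 0.04 without WT replicate 2. Hspe1 was at 53.2 and 49.3 CPM against 49.5 and 48.2 CPM, with a log2 fold change of -0.07 ± 0.12, or -0.12 without WT replicate 2. Hspe1 and Hspd1 carry the longer repeat and were among the members with the smallest differences, whereas Hsph1, which also carries it, had 0.28. Hspa1a and Hspa1b, each with a match, had the largest log2 fold changes, 1.58 and 2.30. Of the inducible members without a match in the window, Dnajb1 had 0.89 and Hspa4l 0.13. Whether matches go with the differences was not tested. Summed over all 12 inducible members, the level was 2077 and 2342 CPM in WT and 2385 and 2580 CPM in Tas1r3-/-, so WT replicate 2 was close to Tas1r3-/- replicate 1. Over the 11 other than Hsp90aa1, the most abundant of them, it was 1043 and 1061 CPM in WT and 1259 and 1368 CPM in Tas1r3-/-.

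**Figure D3:**
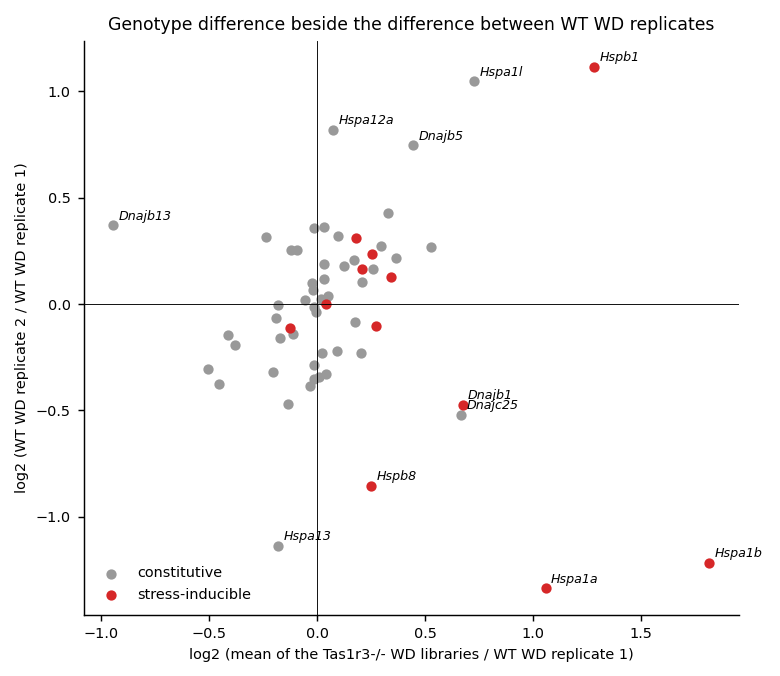
For each tested member, the log2 ratio of the mean of the Tas1r3-/- libraries to WT replicate 1 (horizontal) beside the log2 ratio of WT replicate 2 to WT replicate 1 (vertical). Hspa1a and Hspa1b lie far right and far below 0, at 1.06 and -1.34 for Hspa1a and at 1.81 and -1.22 for Hspa1b, so that WT replicate 2 and Tas1r3-/- lay on opposite sides of WT replicate 1. Both axes share WT replicate 1.

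The plot of both differences shows how far the WT libraries stood from each other. The root mean square log2 difference between WT replicates was 0.67 over the inducible members, against 0.38 between Tas1r3-/- replicates, and over all genes it was 0.76 against 0.37. WT replicate 2 was the lowest or the highest library for 39 of 61 members (63.9%), beside 68.5% of all genes. It lay outside the other 3 libraries by more than their range for 18 members (29.5%), beside 33.9% of all genes.

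Immediate early genes and markers of cell types were also measured beside these genes. Immediate early genes, which are switched on by neuronal activity or handling, summed to 280 and 294 CPM in WT and to 459 and 506 CPM in Tas1r3-/-. Of 13 tested, 10 were higher in both Tas1r3-/- libraries and 1 lower in both, beside 20.6% and 19% of all genes. Egr1 was at 75.1 and 77.9 CPM in WT and at 130.1 and 142.7 CPM in Tas1r3-/-. Endothelial and mural markers summed to 415 and 472 CPM against 420 and 396 CPM, and astrocyte markers to 3654 and 3560 CPM against 3706 and 3830 CPM. Oligodendrocyte markers summed to 5270 and 6539 CPM against 6274 and 6389 CPM, and microglial markers to 403 and 373 CPM against 415 and 346 CPM. Ependymal markers summed to 122 and 208 CPM against 95.1 and 100.4 CPM, and red blood cell markers to 380 and 1960 CPM against 770 and 455 CPM. The part of the immediate early genes, of dissection and of these cell types in the values of the heat shock genes was not tested.

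The constitutive members were divided between both directions. Of 49 tested, the mean in Tas1r3-/- was higher for 26 and lower for 23. Both Tas1r3-/- libraries were above both WT libraries for 10 (20.4%) and below for 11 (22.4%), close to the 20.6% and 19% of all genes. None reached an unadjusted p under 0.05, and the median log2 fold change was 0.01. Leaving out WT replicate 2 gave 0.0049, and its sign turned when WT replicate 1 (-0.0061) or Tas1r3-/- replicate 2 (-0.0031) was left out.

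Per kilobase of canonical transcript, the highest levels of members were those of Hspa8 at 811 CPM per kb, Hsp90ab1 at 712 CPM per kb and Hsp90aa1 at 329 CPM per kb. These 3 genes made up 51.2% of the summed CPM of all members, which was 9360 and 9867 CPM in WT and 9940 and 10153 CPM in Tas1r3-/-. Hspa8, which carries most folding work of the cytosol and uncoats clathrin vesicles, was at 1773 and 1903 CPM in WT and at 2095 and 1999 CPM in Tas1r3-/-. Its groups did not overlap, and its log2 fold change was 0.16 ± 0.13, with 0.21 without WT replicate 2 and an unadjusted p of 0.285 by edgeR. Hsp90ab1, the constitutive cytosolic HSP90, was at 1937 and 1918 CPM against 1866 and 1973 CPM, with a log2 fold change of -0.01 ± 0.13, also -0.01 without WT replicate 2. Its sign turned with total counts in place of TMM (0.003), and without WT replicate 1 (0.0065) or Tas1r3-/- replicate 1 (0.0327).

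Dnajc5 and Dnajc6, which serve vesicles and their coats, and Dnajc27 were among the 8 most abundant constitutive genes. Dnajc5 (cysteine string protein), which keeps SNARE proteins folded, was at 405 and 345 CPM in WT and at 405 and 416 CPM in Tas1r3-/-. WT replicate 2 alone stood low, and the log2 fold change of 0.13 ± 0.14 was 0.02 without it. Dnajc6 (auxilin), which recruits Hspa8 to clathrin coats, was at 356 and 457 CPM against 344 and 361 CPM. Its log2 fold change of -0.21 ± 0.17 was -0.01 without WT replicate 2, and -0.37 without WT replicate 1, with an adjusted p of 0.0250 by edgeR. Dnajc27 (RBJ), a small GTPase with a J domain, was at 210 and 172 CPM against 208 and 207 CPM, with 0.12 ± 0.15 that became -0.01 without WT replicate 2.

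Hspa12a, a distant HSP70 relative found in neurons, was at 170 and 300 CPM in WT and at 175 and 182 CPM in Tas1r3-/-. Its log2 fold change of -0.39 ± 0.29 turned to 0.07 without WT replicate 2, and was -0.74 without WT replicate 1, with an adjusted p of 0.00114 by edgeR. Hspa4, a constitutive HSP110, was at 248 and 269 CPM against 264 and 243 CPM, with a log2 fold change of -0.03 ± 0.13 that became 0.03 without WT replicate 2. Hspa9 (mortalin), the HSP70 of the mitochondrial matrix, was at 197 and 211 CPM against 192 and 196 CPM, with -0.07 ± 0.13, or -0.02 without WT replicate 2.

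The 10 mitochondrial members tested included the inducible Hspd1 and Hspe1. Of the 10, 7 had a lower mean in Tas1r3-/-, beside 7313 of the 14344 genes. Both libraries were below for 4 (40.0%) and above for 1 (10.0%), the inducible Hspd1, beside 19% and 20.6% of all genes. The median log2 fold change was -0.07, or -0.11 without WT replicate 2. Dnajc30, a partner of ATP synthase, was at 49.5 and 40.0 CPM in WT and at 35.7 and 34.0 CPM in Tas1r3-/-, with -0.36 ± 0.16 and an unadjusted p of 0.0786 by edgeR. It was -0.50 without WT replicate 2. Dnajc15, which acts at the import motor of the inner membrane, was at 30.7 and 23.7 CPM against 22.2 and 22.6 CPM, with -0.28 ± 0.19, and -0.46 without WT replicate 2.

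The other constitutive members with a low fold change were Dnajc24 and Dnajc17. Dnajc24, which takes part in diphthamide synthesis, was at 9.10 and 8.24 CPM against 5.78 and 7.89 CPM, with -0.34 ± 0.29. Dnajc17, a nuclear splicing-related protein, was at 11.9 and 10.4 CPM against 9.96 and 8.24 CPM, with -0.29 ± 0.24. Without WT replicate 2 these were -0.42 and -0.38.

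Of the 5 constitutive members with the highest fold changes at a mean of at least 5 CPM, Dnajc1, Dnajb14, Hspa13 and Dnajc3 were in the list of ER members. Of 7 tested, 3 were above in both Tas1r3-/- libraries (42.9%) and 0 below, beside 20.6% and 19% of all genes, and the median log2 fold change was 0.25, but 0.03 without WT replicate 2. Dnajc1 (ERdj1), which binds translating ribosomes, was at 16.8 and 20.3 CPM in WT and at 23.8 and 24.7 CPM in Tas1r3-/-, with 0.39 ± 0.18, or 0.53 without WT replicate 2. Dnajc3 (p58IPK), a target of the unfolded protein response that inhibits PERK, was at 62.2 and 72.3 CPM against 86.8 and 73.3 CPM, with 0.25 ± 0.16, or 0.37 without WT replicate 2. Dnajb14, an ER membrane protein, was at 17.0 and 14.5 CPM against 18.3 and 20.9 CPM, with 0.31 ± 0.19, or 0.20 without WT replicate 2. Hspa13 (STCH), an HSP70 of microsomes, was at 80.0 and 36.4 CPM against 72.0 and 69.3 CPM. Its log2 fold change of 0.28 ± 0.38 turned to -0.18 without WT replicate 2, and was 0.96 without WT replicate 1, with an adjusted p of 0.000722 by edgeR.

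Dnajc16, which bears on autophagosome size and was not in the list of ER members although its protein is known from that membrane, was at 75.8 and 71.5 CPM against 83.7 and 87.5 CPM, with 0.22 ± 0.12, or 0.18 without WT replicate 2. It lies at chr4:141487486-141518245 of GRCm39, 14.46 Mb from Tas1r3 on the same chromosome. The member nearest to Tas1r3 was Dnajc11, at 3.93 Mb, whose levels were 63.7 and 57.0 CPM against 52.4 and 60.8 CPM. Of 4 members listed as a vesicle group, 2 were above in both Tas1r3-/- libraries and 0 below. Of the nuclear and ribosomal group, 1 of 5 was above and 2 below, beside the same 20.6% and 19% of all genes. The median log2 fold change of the vesicle group was 0.13, but 0.0031 without WT replicate 2. For the nuclear and ribosomal group it was 0.03, and 0.0049 without WT replicate 2.

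Members at a few CPM gave the widest constitutive values and were named after their values were seen. Dnajb13, a protein of motile cilia, was at 3.95 and 5.11 CPM in WT and at 3.05 and 1.05 CPM in Tas1r3-/-, with -1.12 ± 0.58, or -0.92 without WT replicate 2. Ependymal markers, from cells that bear motile cilia, were also lower in both Tas1r3-/- libraries for 6 of 10 genes, beside 19% of all genes. WT replicate 2 was the highest library for 9 of the 10. The part of these cells in Dnajb13 was not tested. Dnajc25 was at 1.89 and 1.32 CPM against 3.37 and 2.63 CPM, with 0.90 ± 0.45, or 0.67 without WT replicate 2. The members that did not pass the filter were Dnajb3, Dnajc22, Hspb3 and Hspb7, with 1 to 11.03 estimated counts in a library.

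Outside the rule, 37 genes, mostly of cochaperones and heat shock factors, were listed as the same pathway. Hsf5, at 3.09 to 8.01 estimated counts in a library, did not pass the filter on low counts, so 36 were tested. Of these, the mean in Tas1r3-/- was higher for 17 and lower for 19, with a median log2 fold change of -0.03. Both Tas1r3-/- libraries were above for 11 (30.6%) and below for 9 (25.0%), beside 20.6% and 19% of all genes. None was a DEG. By edgeR, 4 reached an unadjusted p under 0.05, all with a higher mean, beside 3.5% of all genes higher at that p. They were Bag3, Chordc1, Fkbp5 and Dedd2, and the last encodes a death effector domain protein, not a cochaperone or heat shock factor. The median was 0.03 without WT replicate 2.

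**Figure D4:**
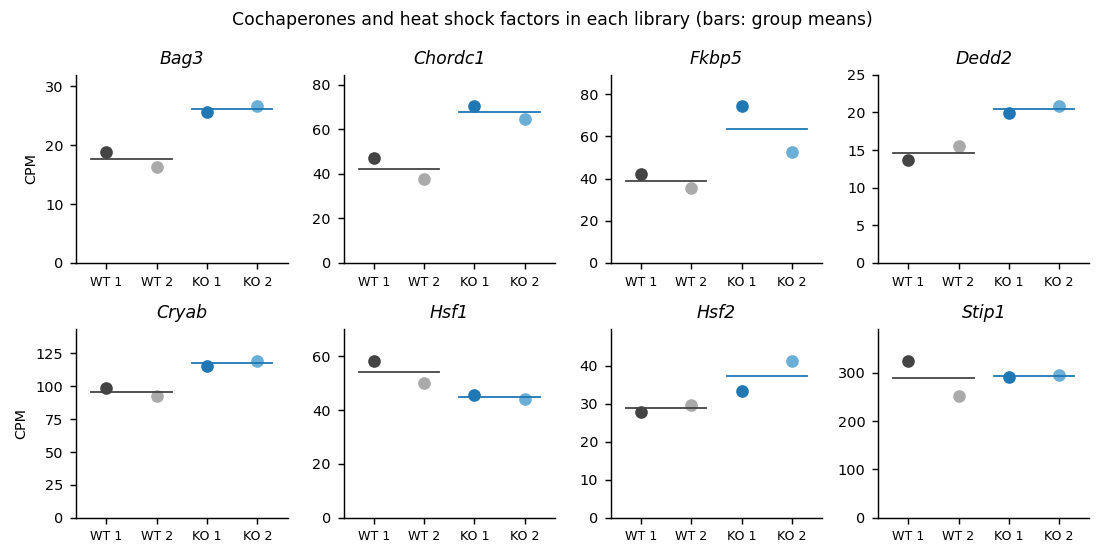
CPM of 8 genes of the cochaperone and heat shock factor list in each library, each panel from 0 on its own scale. Points are libraries and horizontal bars are group means. Bag3, Chordc1, Fkbp5 and Dedd2 have both Tas1r3-/- libraries above both WT libraries, Hsf1 has both below, and Stip1 overlaps.

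Bag3, an HSF1 target and nucleotide exchange factor that pairs with Hspb8, was at 18.9 and 16.3 CPM in WT and at 25.5 and 26.7 CPM in Tas1r3-/-. Its log2 fold change was 0.57 ± 0.17, with an unadjusted p of 0.0217 by edgeR, and 0.47 without WT replicate 2. Chordc1, a heat-inducible HSP90 cochaperone, was at 47.2 and 37.6 CPM against 70.5 and 64.7 CPM, with 0.67 ± 0.16 and an unadjusted p of 0.00945 by edgeR, and 0.52 without WT replicate 2. Neither pair of groups overlapped, and the adjusted p was 0.756 for each gene by edgeR.

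Fkbp5, an HSP90 cochaperone of steroid receptors that glucocorticoids induce, was at 41.9 and 35.4 CPM against 74.4 and 52.4 CPM, with 0.71 ± 0.22 and an unadjusted p of 0.0220 by edgeR. It was 0.60 without WT replicate 2. Dedd2, which encodes a death effector domain protein, was at 13.7 and 15.5 CPM against 19.9 and 20.9 CPM, with 0.48 ± 0.18, an unadjusted p of 0.0454 by edgeR, and 0.57 without WT replicate 2. Cryab, the small heat shock protein alpha B-crystallin, was at 98.9 and 92.3 CPM against 115.3 and 119.4 CPM, with 0.30 ± 0.12 and an unadjusted p of 0.0644. Its most abundant transcript alone gave -0.04. Without WT replicate 1, Bag3, Chordc1, Fkbp5 and Cryab had adjusted p of 0.0264, 0.00179, 0.0153 and 0.0458 by edgeR.

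Of the heat shock factors tested, Hsf1 and Hsf4 were lower and Hsf2 higher in both Tas1r3-/- libraries. Hsf1 was at 58.4 and 50.3 CPM in WT and at 45.6 and 44.0 CPM in Tas1r3-/-, with -0.28 ± 0.14 and an unadjusted p of 0.102 by edgeR. Hsf2 was at 28.0 and 29.8 CPM against 33.4 and 41.4 CPM, with 0.37 ± 0.17 and an unadjusted p of 0.0839 by edgeR. Hsf4, which was named after its values were seen, was at 34.9 and 28.8 CPM against 26.2 and 27.5 CPM, with -0.25 ± 0.17 and an unadjusted p of 0.206 by edgeR. Without WT replicate 2 the log2 fold changes were -0.38 for Hsf1, 0.42 for Hsf2 and -0.38 for Hsf4. HSF1 acts through its protein, which these data do not measure.

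The most abundant cochaperones were near the same level in both groups. Bag6, which guards misfolded membrane proteins, was at 317 and 318 CPM against 314 and 287 CPM, with -0.08 ± 0.13, also -0.08 without WT replicate 2. Stip1 (HOP), which links HSP70 to HSP90, was at 325 and 251 CPM against 290 and 296 CPM, with 0.03 ± 0.17 that turned to -0.15 without WT replicate 2. Fkbp4, another partner of HSP90 in steroid receptor complexes, was at 199 and 225 CPM against 208 and 217 CPM, with 0.01 ± 0.14, or 0.10 without WT replicate 2, and -0.0014 with RLE size factors.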

How the data were processed

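STAR, run in Partek Flow, was what the authors used for alignment to mm39, followed by quantification of RefSeq transcripts. They deposited estimated counts for each transcript and library, without normalization, and 12.98% of values are whole. Each listed transcript has a total of at least 10. By RefSeq accession, 30891 of 30930 transcripts were summed to 16339 genes, and the other 39, with 0.347% to 2.49% of counts, were left out. Sums were rounded, since the test assumes counts. The design had assumed counts for genes.

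Groups were taken from sample titles. Tas1r3-/- was compared with WT by edgeR 4.0.16 (R 4.3.3) with TMM, filterByExpr, the quasi-likelihood test and Benjamini-Hochberg adjustment over 14344 genes. The criteria for DEGs were a fold change of 1.5 or more and an adjusted p under 0.05. With 2 libraries against 2, an exact permutation test cannot go below 0.333, so it was not used. Alternatives were DESeq2 1.42.0 (the tool in the study's methods), limma-trend (limma 3.58.1), other size factors, filters, a replicate block, the most abundant transcript and each library left out. The procedure was also run on simulated data, where libraries shared a mean profile apart from set differences between groups. Those data held no library like WT replicate 2, so they do not test that case.

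Members and lists were chosen with earlier results of these data known. Named genes were all inducible members, the 8 constitutive members of highest mean CPM, the 5 highest and 5 lowest fold changes at a mean of at least 5 CPM, and members not tested. In the cochaperone list they were genes with an unadjusted p under 0.05, Hsf1, Hsf2, Bag3, Cryab and the 3 of highest CPM. Positions are from GENCODE M39 (GRCm39), and promoter windows are from RefSeq. Counting limits cover counting error only.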

Additional observations from a re-analysis of the deposited data

How the results depend on the processing

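The number of DEGs was 0, and 9 with DESeq2. Leaving out 1 library at a time gave 0 to 2122, namely 2122 without WT replicate 1, 32 when WT replicate 2 was dropped and 0 otherwise. Deviations at the same replicate number had a correlation of 0.0821 over genes. With 2 pairs, and with WT replicate 2 against its tissue label, this cannot decide whether replicate numbers pair the libraries. A fit with the replicate block gave 0 DEGs. A crossed pairing, chosen after seeing the data, also gave 0. With the block, the medians were 0.30 for the inducible, 0.01 for the constitutive and -0.02 for the cochaperone list.

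The inducible median of 0.30 was 0.46 with the most abundant transcript and 0.20 to 0.32 with each library left out. It was 0.75 over 6 core members, Hspa1a, Hspa1b, Hspb1, Hsph1, Hsp90aa1 and Dnajb1. This shorter list was also chosen with earlier results known, so its median is a description. The constitutive median of 0.0129 was 0.0216 with total counts, 0.0011 with the most abundant transcript and -0.0061 to 0.0327 with each library left out. It turned sign when WT replicate 1 (-0.0061) or Tas1r3-/- replicate 2 (-0.0031) was dropped. The cochaperone median of -0.0286 lay between -0.0444 and 0.0304 when 1 library was dropped, and turned sign without WT replicate 2 (0.0304).

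Of 557 alternative values for 40 named genes, 529 kept direction and side of the adjusted p threshold of 0.05, whatever the fold change. A further 16 turned sign in 9 genes. The remaining values differed from the main fit in their side of that threshold, all without WT replicate 1. With each library left out, log2 fold changes ranged from -0.13 to 0.18 for Hsp90aa1 (-0.0467 without Tas1r3-/- replicate 2), from -0.0535 to 0.0327 for Hsp90ab1 (0.0065 without WT replicate 1), from -0.0936 to 0.0312 for Hspa4 (0.0249 without Tas1r3-/- replicate 2), from -0.74 to 0.0741 for Hspa12a, from -0.0141 to 0.28 for Dnajc27, from -0.18 to 0.96 for Hspa13, from -0.15 to 0.23 for Stip1 and from -0.0754 to 0.0968 for Fkbp4. Hsp90ab1 was 0.003 with total counts. Fkbp4 was -0.0014 with RLE size factors and -0.0009 with the most abundant transcript, and Cryab was -0.0406 with the latter. The cause of these shifts was not tested. At these depths, members under about 5 CPM rest on few counts.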

Other observations

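Estimates for single transcripts of the members gave values that the sums hide. Dnajb1 has a main and a minor transcript in the table. The main transcript was at 68.7 and 38.2 CPM in WT and at 98.4 and 99.3 CPM in Tas1r3-/-, and the minor one at 4.91 and 14.8 CPM against 12.9 and 24.5 CPM, so only the main one had groups that did not overlap. Hsph1 also has 2 transcripts. Its main transcript was at 234 and 274 CPM against 328 and 339 CPM, whereas its minor one was at 58.3 and 46.0 CPM against 29.8 and 45.5 CPM, so that the main transcript made up 80.1% and 85.6% of the gene in the WT libraries, against 91.7% and 88.2% in those of Tas1r3-/- mice.

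Dnajc28, a mitochondrial J-domain protein, was near the same level in all libraries as a sum, at 18.2 and 14.5 CPM against 20.4 and 17.0 CPM. The share of its more abundant transcript was 9.35% and 51.6% in the WT libraries, against 59.3% and 98.7% in those of Tas1r3-/- mice. These shares are the authors' estimates over transcripts that overlap, at under 21 CPM in all, and they were not tested.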
